A study of Mus musculus with 87 samples.

Results

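The libraries described here came from 8 offspring of one breeding pair of mice, labelled as homozygous knockouts, and compare DNA of the ear with DNA of the tail. They are 8 of the 87 libraries of the series. All 8 animals carried the labelled genotype Chr4-cl KO/KO, the loss of both copies of a cluster of KRAB zinc finger genes on chromosome 4, on the mixed background B6x129X1/SvJ (F2). DNA had been taken from the ear of C6923, C6924 and C6926 and from the tail of C6765, C6733, C7414, C7415 and C7417. The mother BA27227 (KO/WT) and the father BA27232 (KO/KO) were of the same strain and had also been sampled at the ear. For comparison, 8 tail libraries of KO/WT offspring of the same parents were used. No animal contributed both tissues, the labels give no ages, and the 5 tail libraries are among those the study counts as juvenile tails. The deletion had been made in B6 embryonic stem cells, and the mice descend from clones that carried it on 1 chromosome. The ear libraries carry library numbers 55 to 57 in their titles and the tail libraries numbers between 61 and 67. Tissue, animal and library preparation can therefore not be told apart in this comparison.

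ETn elements are endogenous retroviruses of the mouse that spread by copying their RNA into DNA and inserting the copy elsewhere in the genome. Many carry no genes of their own for this step and depend on the enzymes of related ETnERV elements. KRAB zinc finger proteins bind such elements and recruit the corepressor KAP1, which silences them with repressive chromatin in early embryonic cells. An insertion made in the germ line or in the fertilized egg is found in every cell of the animal, while one made later in the embryo is shared only by the cells that descend from that event. An ear biopsy and a tail biopsy hold different cells of the body, so a mosaic insertion can be frequent in one and absent from the other.

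Insertions had been enriched from genomic DNA with RNA probes for both ends of the long terminal repeats (LTRs) of ETn elements. Per the paper, the probes also cover RLTR4 (MuLV) elements, while the reads used here are those paired with ETn repeats. The probes are 120 bases long, and an LTR typically begins with TG and ends with CA. One probe of each kind is shown to make clear what was captured, with the terminal bases of the LTR in capitals. The first lies on the plus strand at chr1:3145941-3146060 and the second on the minus strand at chr2:174770813-174770932 (build mm9), both at loci that the 2 parents carry.
5' end probe: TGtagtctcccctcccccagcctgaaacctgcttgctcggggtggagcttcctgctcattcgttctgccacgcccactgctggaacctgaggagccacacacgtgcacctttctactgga
3' end probe: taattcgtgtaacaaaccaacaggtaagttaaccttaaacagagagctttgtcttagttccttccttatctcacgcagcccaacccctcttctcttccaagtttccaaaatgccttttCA

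Each library is a list of regions with a number of reads, and a read counts if it maps to 1 place and its mate falls in an ETn repeat. Depth is the sum of these reads, and RPM is the count of a region per 1000000 of them. The calling threshold was 10 RPM, equal to 6.96 reads at the lowest depth among the 8 libraries and to 8.44 at the highest. A private insertion is a locus called in the animal and in no other animal of the series, without a read within 1000 bp in either parent. At the parents' depths of 698731 and 696331 reads, a count of 0 allows up to 4.29 and 4.31 RPM. The 2 parents shared 2501 called loci.

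Before the comparison the labels were set against the inherited loci. The labels give the 3 ear animals as male, while chromosome Y held 0.00677% of the reads of C6923, 0.00575% of C6924 and 0.00516% of C6926. The mother had 0.00630%, the father 0.149% and the male C6733 0.156%, and the 4 tail animals labelled female had 0.00774 to 0.0117%. The 3 loci on chromosome X that only the father carried were called in all 3 ear animals, in all 4 tail animals labelled female and not in C6733. The locus on chromosome Y that only the father carried, 97936 bp from Gm3395, was called in C6733 alone, at 417.0 RPM. The inherited loci thus go against the labelled sex in all 3 ear libraries, so the names C6923, C6924 and C6926 stand for the libraries labelled so, and no comparison with the ear can be given without them. The labelled genotype of these 3 libraries was not tested against the reads, so KO is used for them as a label. In all 8 animals every locus of 100 RPM or more had a read in a parent, apart from 1 in C7417 that is described with the inherited loci. No 2 libraries of a group were alike within counting noise. Over the loci of both parents, chi-square per degree of freedom of the pairs ran from 2.82 to 5.90.

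Private insertions were found mainly in tail DNA. C6923 and C6924 had 0 and C6926 had 4 in the ear. In the tail, C7414 had 0, C6765 had 23, C7415 had 30, C7417 had 42 and C6733 had 87. The ear libraries averaged 1.33 ± 2.31 (SD, n = 3) and the tail libraries 36.4 ± 32.2 (n = 5). The ranges overlapped at the low end, because C7414 had as few as the 2 lowest ear libraries and fewer than C6926. An ear library had fewer insertions than a tail library in 12 of the 15 pairs of animals, and the effect (percent of pairs with the ear higher minus percent with the ear lower) was -73.3%. The exact two-sided permutation test of the rank sum gave p = 0.143 (adjusted over 6 measures 0.171), and 3 against 5 animals cannot go below 0.0357. Leaving out C7414 removed the overlap and gave an exact p of 0.0571, the smallest that 3 against 4 allow. Leaving out any other single animal gave a higher p than the main test. The exact p was 0.229 without any one of the other tail animals and 0.286 without any one of the ear animals. Without C6733 the tail mean was 23.8, and without C6926 the ear mean was 0. In the 8 KO/WT tail libraries the number ran from 0 to 40 with a median of 0.5, and the difference from the ear libraries did not pass the same test (effect -16.7%, exact p = 0.788). By the labels the KO genotype is shared by ear and tail, so this second comparison changes genotype as well as tissue.

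**Figure D1:**
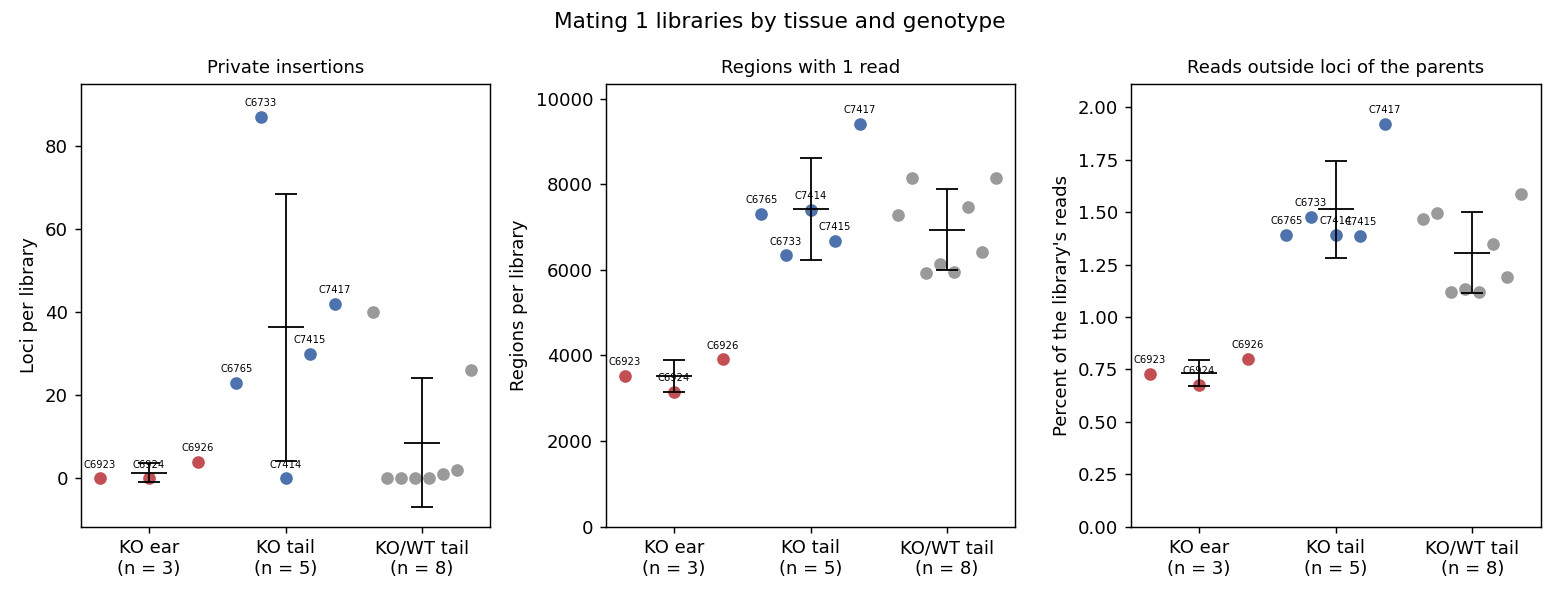
Private insertions, regions with 1 read and percent of reads outside loci of the parents in each library, by group (KO ear, n = 3; KO tail, n = 5; KO/WT tail, n = 8). Points are libraries, and the horizontal bar and whiskers are the mean and SD; the ear and tail values overlap for private insertions and are apart in the other panels.

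All 4 ear insertions were in C6926, near the calling threshold. The strongest held 15 reads (19.8 RPM) at chr17:30978734-30979297, in an intron of Dnahc8, which codes for an axonemal dynein heavy chain. The second held 10 reads (13.2 RPM) at chr12:26958605-26958938, between genes and 32724 bp from Rnf144a, a ubiquitin ligase gene. The third, also with 10 reads, lay at chr6:135876161-135876668 in an intron of Grin2b, which codes for an NMDA receptor subunit. The fourth, named because there were only 4, held 9 reads (11.9 RPM) at chr2:70476979-70477313, 20046 bp from the pseudogene Gm16510. None of the 4 had a read in any other animal of the series.

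The strongest tail insertion was in C6765, with 36 reads (42.7 RPM) at chr2:35636453-35637022 in an intron of Ttll11, a tubulin polyglutamylase gene. The next in that animal held 29.6 RPM at chr5:24822044-24822686 in an intron of Mll3, a histone methyltransferase gene, and 28.5 RPM at chr16:29808064-29808704, 2440 bp from the noncoding RNA gene Gm17734. Each of these last 2 had 1 read in 1 other animal.

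In C6733, the animal with the most insertions, the strongest 2 held 31 reads each (38.1 RPM). One lay at chr15:73401695-73402199 and overlapped an untranslated exon of Dennd3, an exchange factor for a Rab GTPase. The other lay at chr7:99922096-99922756 in an intron of Rab30, itself a Rab GTPase gene. The third held 29.5 RPM at chr1:39733860-39734519 in an intron of Rfx8, a gene of the RFX transcription factor family.

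C7415 also had a leading pair of equal strength, with 29 reads each (36.2 RPM). The one at chr12:85939936-85940459 lay 3022 bp from Abcd4, a transporter gene of the ABC family, and the one at chr9:4163184-4163764 lay 107366 bp from the microRNA gene AC115802.1. The third, at chr1:23374743-23375442, held 28.7 RPM and overlapped an untranslated exon of Ogfrl1. All 3 were read again in the library labelled as a replicate of the tail of C7415 (called the repeat library here), at 25.5, 25.5 and 17.6 RPM.

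The leading insertions of C7417 lay between genes. The first held 35.8 RPM at chrX:134060030-134060744, 44403 bp from Il1rapl2, a gene of the interleukin 1 receptor family. The second held 34.6 RPM at chr9:49694760-49695413, 60680 bp from a U6 small nuclear RNA gene, and the third 33.3 RPM at chr19:17012609-17013117, 17491 bp from Prune2.

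The reference sequence at the middle of the strongest private region of each animal with insertions is shown, since these are the sites on which the ear and tail counts rest. Capitals mark the middle 20 bases of the read cluster, which is not the insertion point itself, and the plus strand of mm9 is given. The windows lie at chr17:30978966-30979065, chr2:35636688-35636787, chr15:73401898-73401997, chr12:85940148-85940247 and chrX:134060338-134060437 in the order printed.
C6926, ear: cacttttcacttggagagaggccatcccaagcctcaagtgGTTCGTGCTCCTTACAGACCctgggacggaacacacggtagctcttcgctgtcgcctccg
C6765, tail: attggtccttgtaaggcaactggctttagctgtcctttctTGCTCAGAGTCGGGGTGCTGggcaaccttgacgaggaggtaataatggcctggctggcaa
C6733, tail: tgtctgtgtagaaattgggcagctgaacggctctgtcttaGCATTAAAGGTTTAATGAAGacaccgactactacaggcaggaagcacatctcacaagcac
C7415, tail: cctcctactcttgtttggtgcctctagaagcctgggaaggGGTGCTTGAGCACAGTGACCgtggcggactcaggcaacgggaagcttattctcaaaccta
C7417, tail: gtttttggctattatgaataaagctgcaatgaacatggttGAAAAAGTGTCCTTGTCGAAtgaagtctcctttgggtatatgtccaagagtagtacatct

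None of these windows holds a word of 24 bases of the capture probes on either strand. Most private regions also lacked one with 1000 bp added on each side, though the strongest of C7415 had one. A probe word was found at 0 of the 4 ear insertions and at 5 of the 182 tail insertions, 2.75% (exact 95% interval 0.898 to 6.29). Of the 2501 loci of both parents, 92.6% (91.5 to 93.6) had one. The private regions were thus mostly places where the reference genome has no LTR end of the captured kinds. Private insertions are chosen to have no read in a parent and no call in another animal. This choice largely sets the gap to the loci of both parents by itself, so the gap is not a finding. They were also narrower, with a median width of 485 bp in the tail and 422 bp in the ear against 2963 bp at loci of both parents. A locus spans the called regions of all libraries, and a private one rests on a single animal with few reads. The gap in width is therefore not a finding either. Genes overlapped 51.1% of the tail insertions (43.6 to 58.6), 2 of the 4 ear insertions and 23.5% of the loci of both parents (21.8 to 25.2). At the 28 loci of 1 parent described below, genes overlapped 28.6% (13.2 to 48.7), and 35.7% (18.6 to 55.9) had a probe word. The share of the genome that genes cover was not computed, so no enrichment in genes can be read from these values. Of the 182 tail insertions, 77 lay in introns, 7 overlapped coding exons, 9 overlapped other exons and 89 lay between genes. The intervals cover counting error only, and the loci of an animal share their source.

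Private insertions had few reads. The median was 15.0 RPM over the 182 tail insertions, with quartiles of 12.3 and 19.9, and 13.2 RPM over the 4 of the ear. The highest value was 42.7 RPM, and 41 tail insertions reached 20 RPM against 0 in the ear. For orientation, 28 loci were taken that held at least 100 RPM in one parent and no read in the other, out of 192 loci called in 1 parent only. Their choice at 100 RPM sets them above most private insertions by itself, so the gap between both kinds is not a finding. In the animals that carried them these loci had a median of 173 to 187 RPM in the 3 ear libraries and 157 to 346 RPM in the 5 tail libraries. These medians rest on different loci in each animal, and the 346 RPM of C6733 on only 6. The median private insertion of C6926, at 13.2 RPM over 4 loci, was below those of the tail animals, at 14.4 RPM in C7415, 14.8 in C7417, 15.4 in C6765 and 16.0 in C6733. The threshold of 10 RPM fixes the lowest level that an insertion can have, so these levels describe the called insertions and not all that may be present.

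**Figure D2:**
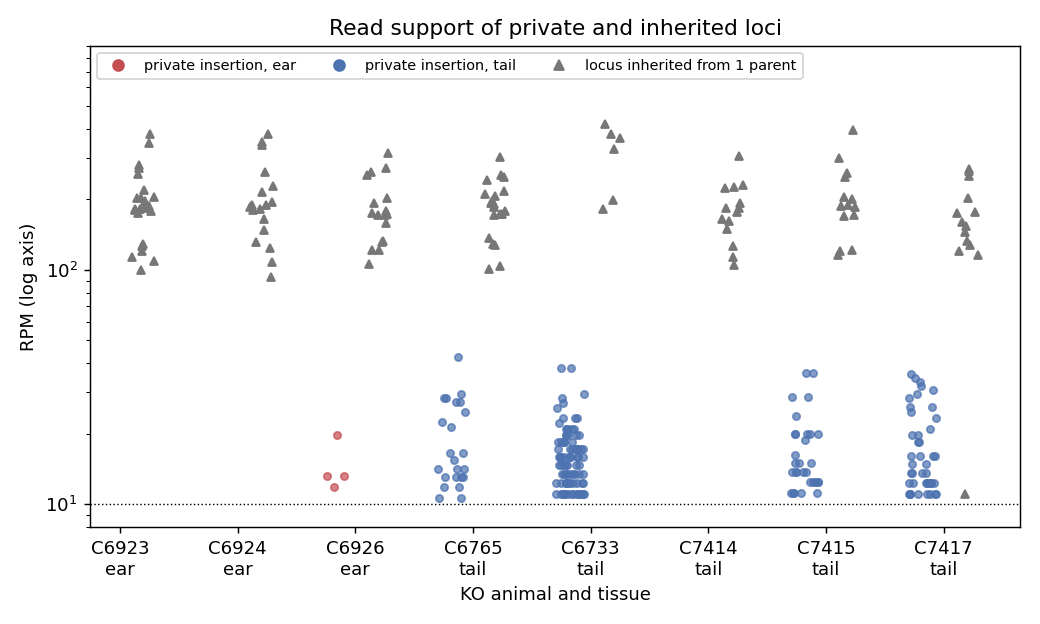
RPM (log axis) of each private insertion (circles; red, ear; blue, tail) and of each inherited locus of 1 parent that was called (triangles) in the 8 KO animals, with the dotted line at the calling threshold of 10 RPM. Private insertions lie between 10.7 and 42.7 RPM, and 1 called locus of 1 parent, in C7417, lies among them at 11.1 RPM.

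Lowering the threshold brought in more candidates in both tissues. At 5 RPM C6923 had 6, C6924 had 1 and C6926 had 11 private loci in the ear. In the tail C7414 had 1, C6765 had 69, C7415 had 73, C7417 had 110 and C6733 had 227. At 20 RPM the 3 ear animals and C7414 had 0, and the other tail animals had 5 to 15. The order of the animals was therefore much the same, with C7414 again among the ear libraries. When each library was thinned to the 695868 reads of C6924, the ear animals had 0, 0 and 4 insertions and the tail animals 0 to 101. The counts of C6765, C6733, C7415 and C7417 rose to 28, 101, 34 and 50. At that depth 10 RPM equals 6.96 reads, fewer than in the full tail libraries, and the parents were not thinned. The thinned counts thus rest on a looser call in the tail.

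Depth differed between the tissues. The ear libraries held 723524, 695868 and 755912 reads (C6923, C6924 and C6926). The tail libraries held 843579 in C6765, 812911 in C6733, 808862 in C7414, 800823 in C7415 and 810087 in C7417. Every tail library was deeper than every ear library, with a ratio of the means of 1.12. The exact two-sided permutation p was 0.0357, the smallest possible, and 0.0714 after adjustment over the 6 measures. The parents' ear libraries, at 698731 and 696331 reads, lay near C6924.

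Regions with a single read were about as many in the ear animals as in the parents and more numerous in the tail. C6923 had 3516, C6924 had 3155 and C6926 had 3909, and the mother and father had 3530 and 3739. The tail libraries had 7317 (C6765), 6340 (C6733), 7394 (C7414), 6678 (C7415) and 9412 (C7417). The tail mean was 2.11 times the ear mean, and the lowest tail library was above the highest ear library. The exact p was again 0.0357 and the adjusted p 0.0714. C7414, with 0 private insertions, had the second highest number of these regions, so that a count of scattered reads and a count of private insertions did not go together in it.

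The difference was also present at equal depth. Per 1000 reads the ear libraries had 4.53 to 5.17 regions with 1 read and the tail libraries 7.80 to 11.6. After thinning to 695868 reads, the ear libraries had 3155 to 3700 and the tail libraries 5609 to 8363, still without overlap. Regions with 1 read made up 46.5 to 50.8% of all regions in the ear and 57.6 to 65.6% in the tail. A median of 9.64% of these regions in the ear libraries and 7.46% in the tail libraries lay within 10 kb of a locus of both parents. A read of another animal covered 63.6 to 66.6% of them in the ear and 53.4 to 67.1% in the tail.

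The number of 1-read regions also varied among libraries of the same tissue. The repeat tail library of C7415 had 626494 reads and 2848 regions with 1 read, below every ear library, where the first tail library of this animal had 6678. An adult tail library of C6733 had 3880, within the ear range, against 6340 in its first tail library. Among 17 tail libraries of KO/KO, KO/WT and WT offspring of 2 other matings of the series, 15 had no more 1-read regions than C6926. Of these 15, 13 had at least 1 private insertion. The 18 other ear libraries of the series ranged from 3441 to 7632. They are the parents, 6 of a Chr2-cl mating (a cluster on another chromosome), 6 of the B6/129 F1 cross and 4 of B6 animals. The highest value was of the Chr2-cl mating. Low numbers of these regions thus occurred in tail DNA, also of C7415 and C6733, and high ones in ear DNA of other lines. These numbers are at unequal depth. Per 1000 reads the repeat library of C7415 had 4.55 against 8.34 in its first, and the adult tail of C6733 5.65 against 7.80. The tails of the 2 other matings had 3.65 to 6.42 and 3.33 to 4.91, and the 18 other ear libraries 4.87 to 8.65. With the repeat library of C7415 in place of the first, the effect on the number of 1-read regions moved from -100% to -60% (exact p = 0.250), and that on depth likewise to -60% (exact p = 0.250).

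**Figure D3:**
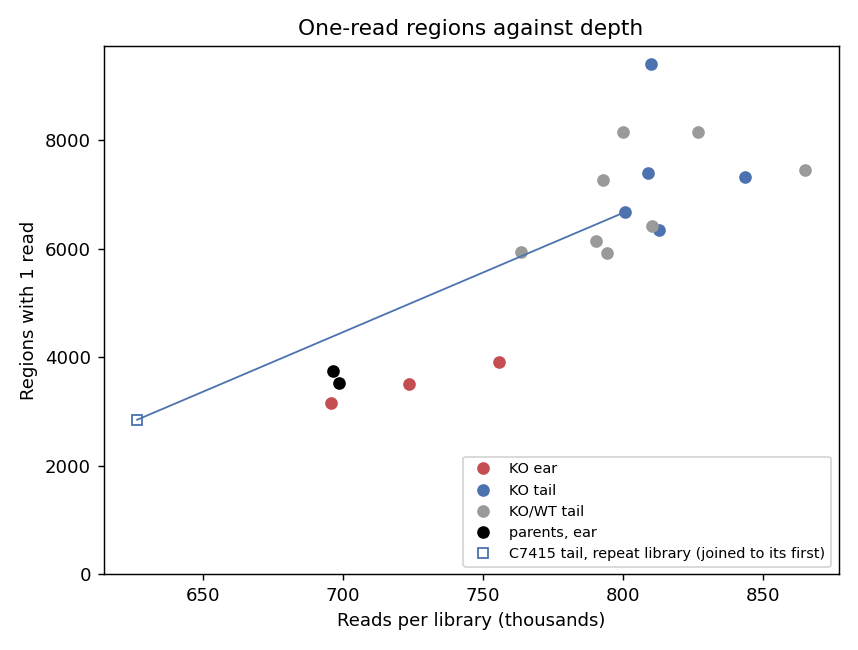
Regions with 1 read against depth (axis in units of 1000 reads per library) for the KO ear, KO tail and KO/WT tail libraries, the parents' ear libraries and the repeat tail library of C7415 (open square, joined by a line to the first tail library of that animal). The 3 ear libraries lie near the parents, below all tail libraries of the first set, and the repeat library lies lowest, at 2848.

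Reads outside the loci of the parents were also a larger share in the tail. This measure overlaps with the one before, because regions with 1 read held 2970 of these 4695 reads in C6924 and 9210 of 15558 in C7417. With the 1-read regions left out, ear and tail still did not overlap (effect -100%, exact permutation p = 0.0357, adjusted 0.0714). They made up 0.728% of the reads of C6923, 0.675% of C6924 (exact 95% interval 0.656 to 0.694) and 0.799% of C6926. In the tail they made up 1.39% in C6765, 1.48% in C6733, 1.39% in C7414, 1.39% in C7415 and 1.92% in C7417 (1.89 to 1.95). The ear mean was 0.734 ± 0.0621% (SD, n = 3) and the tail mean 1.51 ± 0.231% (n = 5), with no overlap, an exact p of 0.0357 and an adjusted p of 0.0714. The repeat tail library of C7415 had 0.770%, inside the ear range, and with it in place of the first library the groups overlapped (effect -86.7%, exact p = 0.0714, adjusted 0.143). Private insertions took up only a small part of these reads. In the ear it was 0.729% of them in C6926, and in the tail 3.17% in C6765, 9.71% in C6733, 3.76% in C7415 and 3.95% in C7417.

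By the number of reads in the region, the relative gap between the tissues was widest in the class with most reads. The classes are fixed read numbers, which the deeper tail libraries reach more easily, and were not thinned to equal depth. Outside the loci of the parents, regions with 1 read numbered 2970 to 3713 in the ear and 6099 to 9210 in the tail. Regions with 4 to 9 reads numbered 135 to 189 and 285 to 423. Regions with 10 reads or more numbered 4, 2 and 7 in C6923, C6924 and C6926, against 36, 82, 27, 39 and 58 in C6765, C6733, C7414, C7415 and C7417. The shallower repeat tail library of C7415 had 16 of them, and the shallower adult tail library of C6733 had 20. C7414 had 27 such regions although it had no private insertion, because the definition also asks for no read in the parents and no call elsewhere.

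Inherited loci were recovered almost completely in both tissues. Of the 2501 loci of both parents, C6923 recovered 98.5%, C6924 98.1% and C6926 98.3%. In the tail the shares were 98.5% in C6765, 98.3% in C6733, 98.9% in C7414, 98.8% in C7415 and 98.5% in C7417. The ear mean was 98.3 ± 0.201% and the tail mean 98.6 ± 0.266%, an ear minus tail difference of -0.315 percentage points (exact p = 0.179, adjusted 0.179). The ear libraries missed 38 to 48 loci and the tail libraries 27 to 43. In all, 2383 loci were called in both parents and in each of the 8 offspring, and 2 were missed in all 8. A threshold of 20 RPM gave 98.1 to 98.5% in the ear and 98.5 to 99.1% in the tail, which do not overlap (exact p = 0.0357, adjusted 0.0536). Against the 8 KO/WT tails at 10 RPM, the effect on recovery was -91.7% (exact permutation p = 0.0242, adjusted 0.0536).

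Loci carried by only 1 parent show which parental chromosomes each animal received. Of the 28, the mother carried 17 and the father 11. C6923 had 16 of the mother's and 7 of the father's, C6924 had 12 and 7, and C6926 had 8 and 9. In the tail, C6765 had 13 and 7, C6733 had 4 and 2, C7414 had 9 and 5, C7415 had 7 and 7, and C7417 had 9 and 5. The ear animals thus carried 60.7 to 82.1% of the 28 and the tail animals 21.4 to 71.4%, with means of 70.2 ± 10.9% and 48.6 ± 17.8% (exact p = 0.107, adjusted 0.161). Without chromosomes X and Y, where the father's loci follow the sex of the offspring, 24 loci were left, with 58.3 to 83.3% in the ear and 20.8 to 70.8% in the tail. The loci lie on 12 chromosomes, with 6 on chromosome 11 and 5 on chromosome 8, so neighbours were passed on together and the 28 are not independent.

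The presence of an inherited locus was clear in nearly all cases. Called copies held 93.4 RPM or more in the 8 animals, with 1 exception, and uncalled ones at most 6.61 RPM. The exception was a maternal locus at chr11:9869763-9872686, which held 11.1 RPM in C7417 and 180.8 to 188.3 RPM in the other 3 KO animals in which it was called. It is counted among the 9 maternal loci of C7417 by the threshold, and whether C7417 inherited it was not tested. Its neighbour at chr11:9875239-9877358 was not called in C7417, at 2.47 RPM. At loci that an animal did not carry, a few reads were often present: in C7417 at 12 of 14 loci and in C6765 at 8 of 8, but in C6924 at 0 of 9. The mean over such loci was 0 to 2.21 RPM in the ear and 0.391 to 2.65 RPM in the tail.

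**Figure D4:**
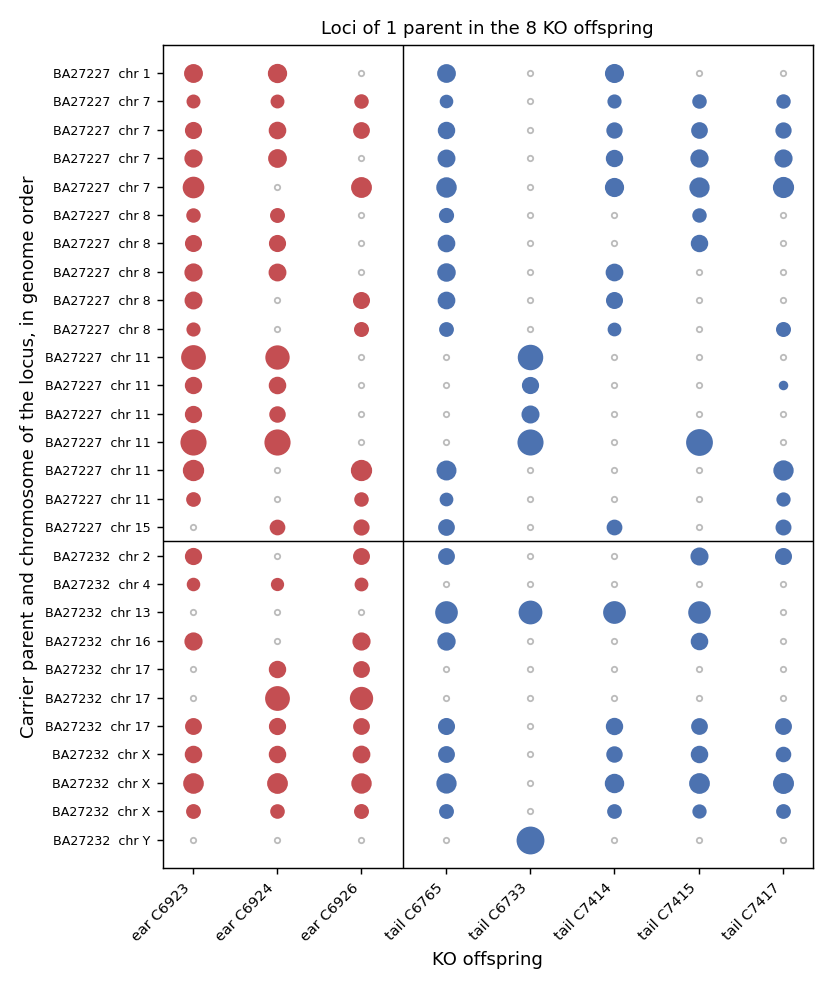
The 28 loci with at least 100 RPM in one parent and no read in the other (rows, by carrier parent and chromosome) in the 8 KO offspring (columns). Filled circles are called loci (red, ear; blue, tail) with a diameter that grows with RPM, and open circles are loci not called; the father's 3 loci on chromosome X are called in all animals but C6733, and his locus on chromosome Y in C6733 alone.

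Of the 28 loci, 23 had carriers in both tissues, 3 had carriers only among ear animals and 2 only among tail animals. The first of the ear loci lay at chr4:60997513-60999720 in an intron of Mup15, a gene of the major urinary protein cluster, whose members are much alike, so that uniquely mapped reads may fall unevenly among them. It held 99.5, 93.4 and 105.8 RPM in C6923, C6924 and C6926 and 1.23 to 4.94 RPM in the 5 tail animals, and was called in 4 of the 8 KO/WT tails. The other 2 lay on chromosome 17, at chr17:32505422-32506413, where the region overlapped a coding exon of Wiz, and at chr17:38081538-38084083 near the pseudogene Gm5967. Both were carried by C6924 and C6926. A paternal locus at chr13:79099999-79102221 was absent from the ear animals, present at 299.7 to 327.2 RPM in 4 tail animals, and called in 7 of the 8 KO/WT tails. The remaining one was the locus on chromosome Y in C6733. These loci were picked for their pattern and their split is a description.

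One insertion in the tail group was at the level of an inherited locus although neither parent had a read there. It lay at chr6:51549777-51550984, between genes and 9099 bp from Snx10, which codes for a sorting nexin. It held 216 reads (266.6 RPM) in C7417, no read in the other 7 KO animals, and 263.1 and 289.0 RPM in the KO/WT tails of C6921 and C6925. Its RPM in C7417 was above the median of the animal's loci of 1 parent, 156.8 RPM. The middle of the region is printed to set it beside the private ones, at chr6:51550331-51550430 on the plus strand with the middle 20 bases in capitals, and it too holds no probe word.
Locus near Snx10: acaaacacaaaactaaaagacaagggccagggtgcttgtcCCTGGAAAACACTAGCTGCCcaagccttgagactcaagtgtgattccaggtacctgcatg
C7414 had a further locus without a parental read, at chr19:13678741-13679628 with 12.4 RPM. It overlapped an exon of the microRNA gene AC115121.1, was called in 5 animals of the series in all and so did not count as private. It is named because it was the only one of its kind in that animal.

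Read numbers at the individual loci of both parents were close to equal in ear and tail. edgeR's quasi-likelihood test was run on the 2038 loci with at least 100 RPM in each parent. Of these, 2 passed an adjusted p of 0.05 (0.0981%), both higher in the ear, and 0 were lower in the ear (0%). At an unadjusted p of 0.05, 117 passed. The log2 ratio of ear to tail lay within 0.5 of 0 at 97.3% of the loci, with quartiles of -0.04 and 0.05. On simulated counts with the same spread between libraries at every locus, 99 of 100 loci changed by 1 on the log2 scale were recovered. Of 100 loci changed by 0.5, 45 were recovered, and 8 unchanged loci were called as well. The adjustment there ran over these changed loci too. The 8 can therefore not be set against the 2 loci called in the data.

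Both called loci lie on chromosome 4. The first, at chr4:48525152-48534006, held 794.7, 840.7 and 842.7 RPM in C6923, C6924 and C6926. In the tail it held 654.4 RPM in C6765, 652.0 in C6733, 649.1 in C7414, 621.9 in C7415 and 662.9 in C7417. The log2 ratio was 0.35 (SE 0.0315, adjusted p = 0.00915 by edgeR), and the region lies between genes, 18801 bp from 5730528L13Rik. The second, at chr4:55413882-55417263 and 4565 bp from the pseudogene Gm12513, held 411.9, 412.4 and 388.9 RPM in the ear and 306.1 to 335.8 RPM in the tail. Its log2 ratio was 0.32 (SE 0.0374, adjusted p = 0.0272 by edgeR). At both loci every ear value was above every tail value. They lie on the same chromosome as the paternal locus in Mup15 that all 3 ear animals and no KO tail animal carried.

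Lack of overlap between 3 and 5 libraries was seen at 10.4% of the 2038 loci, with all ear values above at 4.86% and all below at 5.54%. Of the 56 splits of the animals into 3 and 5, a share of 0.0357 leaves no overlap at a locus without ties. The observed share of loci was higher than this. The loci of an animal share their source, and what lies behind the excess was not tested. The number of loci called depended on single libraries. It was 0 without C6926, 1 without any one of C6765, C6733 and C7414, 4 without C6923 and 15 without C6924. Without C6924, 13 of the 15 were lower in the ear and 2 higher, so that the direction of most calls turned. Without C6923, 3 were higher and 1 lower. DESeq2 called 3 loci, 2 higher and 1 lower in the ear, and 5 loci were called when all 2501 loci of 10 RPM or more in each parent were tested. The 105 loci on chromosome X had a median log2 ratio of 0.06, and none was called.

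**Figure D5:**
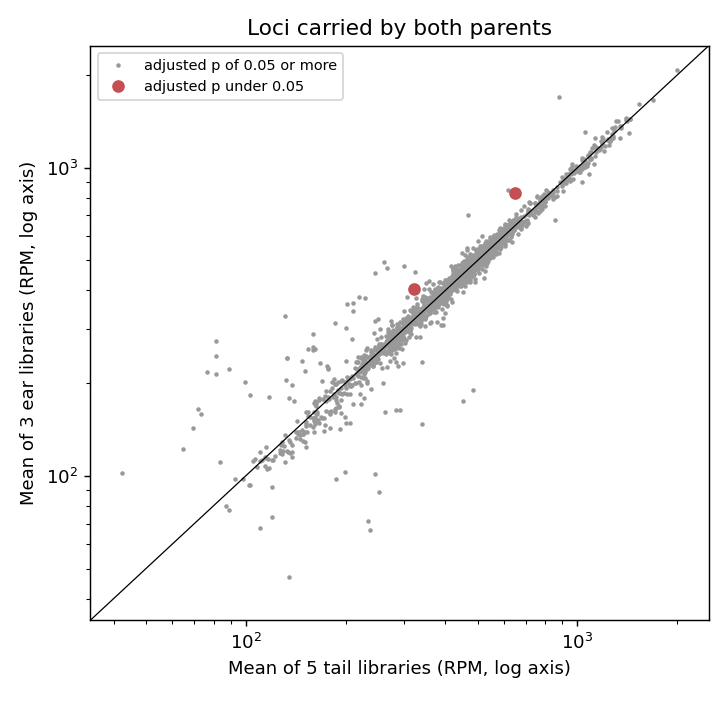
Mean RPM of the 3 ear libraries against that of the 5 tail libraries (log axes) at the 2038 loci with at least 100 RPM in each parent; the line marks equal values. The 2 loci with an adjusted p under 0.05 (edgeR) are drawn as large red points above the line.

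Some insertions of the tail animals could be looked for in other DNA. All 30 insertions of the first tail library of C7415 had a read in the repeat library, and 17 were called there. Of the 87 insertions of C6733, 21 had a read in its adult tail, and 7 were called there. C6733 is also the only 1 of the 8 animals with other tissues sequenced, a testis, a repeat of the testes, brain, blood and kidney. These held 4, 2, 0, 5 and 5 private insertions, and none of the 87 of the tail had a read in any of them. The strongest in the testis held 69.1 RPM, above every private insertion of the 8 libraries, while those of the other libraries reached at most 21.0 RPM. These 5 libraries had 2644 to 3894 regions with 1 read, all below the first tail library of the animal. C6765 and C6733 were mated with each other. None of their 23 and 87 private insertions had a read in the 2 offspring that were sequenced. For the ear animals, no second library, other tissue or offspring was analysed here.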

How the data were processed

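Genomic DNA of mice was sequenced after capture with ETn and RLTR4 LTR probes. Per the methods, the authors mapped the mates of each pair separately to mm9 with Bowtie and removed duplicates with samtools. They kept uniquely mapped reads whose mate overlapped an ETn repeat, merged reads within 1000 bp with bedtools, and deposited the raw counts of reads per region of each library, not normalized and not pooled. Versions of these tools were not given in the sources. The authors' later removal of regions near annotated ETn repeats and known polymorphic elements was not applied to the deposited counts and was not repeated here.

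Groups came from the tissue, genotype and ancestry labels. Called regions of all 87 libraries within 1000 bp of each other were joined into 5018 loci, and reads within 1000 bp of a locus were counted to it. "Other animals" are those of the 76 main libraries, 1 per animal or cell line, and the 11 further libraries are repeats, adult tails and organs. Duplicates were removed by position without molecular identifiers, so intervals (exact Clopper-Pearson, 95%) cover counting error only. The limit for a count of 0 is 3 reads.

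Each of 6 measures per library was compared by an exact two-sided permutation test of rank sums (ties at midranks) over all 56 splits of 8 animals into 3 and 5. The 6 p values were corrected together after Benjamini and Hochberg. At least 5 of the 6 would have to reach the smallest p for an adjusted value under 0.05. Animals are separate mice of the same parents. Loci of both parents were tested with edgeR 4.0.16 (R 4.3.3; TMM, quasi-likelihood), adjusted over all loci, with DESeq2 1.42.0 as an alternative, after a test on simulated data. Other steps used Python 3.11.15 with numpy 2.4.6, scipy 1.17.1 and pandas 2.3.3.

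File coordinates were compared with the NCBIM37 reference, the same assembly as mm9. No region ran past a chromosome end, and 1355 of 1408 capture probes matched the reference at their stated position. Gene positions are those of the GENCODE M1 annotation, which uses this assembly. A region that overlaps several genes is named for the protein coding one. Named loci are the 3 private insertions with the highest RPM in each library, germ line loci, and loci of both parents past the adjusted threshold (at most 5 in each direction). Other loci are named for the reason given beside them. The animals, loci and tests were chosen with earlier results of these data known.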

Additional observations from a re-analysis of the deposited data

Results flagged for a closer look

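Among the 5 tail libraries, the depth of C6765 (843579 reads) lay farther from the others than expected of 5 values by Dixon's test, as did the percent of reads outside the loci of the parents in C7417 (1.92%). Such a distance was looked for in 6 groups of tail values, and chance gives it in about 1 of 20 groups.

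Signal was also present in libraries that enter no comparison. The repeat tail library of C7415 held 26 private insertions, 17 of them called in the first tail library of this animal. The adult tail library of C6733 held 37, of which 7 were called in the first tail library. In other tissues of C6733, 4 private insertions were present in the testis library, 2 in the repeat of the testes, 5 in blood and 5 in kidney, and none of these was called in its tail. The parents have none by definition, and the ear libraries of C6923 and C6924 also had 0.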

How the results depend on the processing

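No paired analysis was possible because ear and tail DNA came from different animals. For the 6 measures per library, 91 alternative values were computed, which include leaving out each animal, other thresholds, thinning, other joining distances and the KO/WT tails. All 91 kept the direction and stayed above the adjusted threshold, with adjusted p values from 0.0536 to 0.788. The repeat library of C7415 and the loci without chromosomes X and Y were chosen after seeing the data. The design cannot pass the threshold with few measures at the smallest p, so this says little about stability. With the 8 KO/WT tails in place of the KO tails, depth, 1-read regions and reads outside the loci of the parents did not overlap the ear values. Each had an effect of -100% (exact permutation p = 0.0121, adjusted 0.0714).

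The number of loci of both parents called by edgeR was 2. It moved to 5 with loci of at least 10 RPM in each parent, and to between 0 and 15 when 1 animal was left out, with 13 of the 15 lower in the ear without C6924. Depth limits private insertions to those above about 7 to 8 reads.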
